A study of Mus musculus with 13 samples.

Results

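T cells of 3 hemoglobin-rich libraries leaned towards Cd8 cells and held very little RNA of the immediate early genes. These libraries are from a study of mouse lungs, but their lung-defining transcripts were at or near 0. Of 24 compared genes of activated T cells 10 were lower there (41.7%, against 6.04% of all genes). Of these, only Cxcr6, Icos, Pdcd1 and Rora were still called without doublet-like cells. S100a4, Cxcr6 and Maf were called in neither Cd8 nor Cd4 cells alone. Pdcd1, Tnfrsf4 and Ctla4 were too low in these libraries to pass the filter on low values there. Nothing is therefore read from their calls, or from the 41.7% that counts them. The T cells were chosen by measured values. A barcode of library 4, 5 or 6 was taken as a T cell when it had at least 3 UMIs over Cd3e, Cd3d and Cd3g, no UMI of Cd79a, Foxp3 or Ncr1, and at most 10% of its UMIs from mitochondrial genes. A UMI, or unique molecular identifier, marks 1 captured RNA molecule. The rule found 75, 198 and 259 cells in libraries 4, 5 and 6, which is 532 of the 37344 barcodes in the matrix. The same rule in libraries 1, 2, 3 and 7 found 403, 338, 293 and 157 cells, together 1191, and these served for comparison.

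By their titles, 4 single-cell samples are Asthma, Control, PPE-emphysema and PPE-recovery lungs of wild-type C57BL/6 mice, with 1 mouse per model. Asthma mice were sensitized and then repeatedly challenged with ovalbumin (OVA), PPE-emphysema mice received weekly intratracheal porcine pancreatic elastase (PPE), Control mice were instilled on the same schedule, and PPE-recovery mice received a single instillation and were kept longer. No age of the animals was found in the labels or the methods. The other 9 samples, 3 each titled Acute, Con and emphysema, were not analysed here. The matrix numbers its 7 libraries and names no sample, so no library could be tied to a model, and no test between models was possible. Each library was described on its own, and intervals cover counting error only.

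A naive T cell circulates between blood and lymphoid organs. It carries the chemokine receptor Ccr7, which admits it to lymph nodes, and the transcription factors Lef1 and Tcf7. After it meets antigen it divides, raises the adhesion receptor Cd44, and may settle in tissue with receptors such as Cxcr6. Immediate early genes, among them Fos, Jun and Egr1, encode transcription factors and feedback regulators that cells switch on within a short time of a stimulus, and handling or dissociation of tissue is a well-known stimulus.

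Libraries 4, 5 and 6 stood apart from the rest in more than hemoglobin. Hemoglobin genes took 38.5%, 39.9% and 34.8% of all their UMIs, against 0.0279%, 0.0189%, 0.00925% and 0.0238% in libraries 1, 2, 3 and 7. Transcripts that define lung epithelium were close to absent: surfactant protein C (Sftpc) had 0, 0 and 2 UMIs in the whole of libraries 4, 5 and 6, against 154245, 524823, 446402 and 91815 in libraries 1, 2, 3 and 7. The endothelial cadherin Cdh5 had 8, 12 and 9 UMIs there, and the collagen gene Col1a1 18, 1 and 1. The tissue label is lung for every sample, and its defining markers were thus at or near 0 in these 3 libraries. Their lowest barcode held 5735, 3439 and 3946 UMIs, whereas the lowest of each other library held between 304 and 501. Libraries shared between 2 and 17 barcode sequences in the 21 pairs, no T cell barcode was found as a T cell in a second library, and 5 T cell barcodes of libraries 4, 5 and 6 were also listed by another library.

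T cells made up 2.51% (95% exact binomial interval 1.98 to 3.13), 4.05% (3.52 to 4.64) and 5.31% (4.69 to 5.97) of the barcodes within the mitochondrial limit in libraries 4, 5 and 6. In libraries 1, 2, 3 and 7 the shares were 8.40%, 4.43%, 5.71% and 4.76%, so the order of libraries did not follow hemoglobin. Of 82, 236 and 359 barcodes with at least 3 UMIs of the Cd3 genes in libraries 4, 5 and 6, 5, 30 and 96 had a Cd79a UMI. In libraries 1, 2, 3 and 7 these were 12, 13, 5 and 8 of 440, 372, 325 and 194. The shares leave such barcodes out, most of all in library 6. The T cells of libraries 4, 5 and 6 had medians of 9403, 7933 and 6477 UMIs, deeper than the 5566, 6426.5, 6240 and 6374 of the others. The UMIs summed over the T cells of a library numbered 741782, 1966952 and 1840148 in libraries 4, 5 and 6, and from 1157129 to 3033831 in the others. A count of 0, read as allowing up to 3 UMIs, therefore allows 4.04, 1.53 and 1.63 CPM in libraries 4, 5 and 6, where CPM is the UMIs of a gene per 1000000 UMIs of the T cells of that library. All levels below are in CPM.

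The label T cell was checked against genes that the rule did not use. Trac, the constant region of the T cell receptor alpha chain, had 266, 471 and 470 CPM in libraries 4, 5 and 6 and 544, 410, 454 and 507 CPM in libraries 1, 2, 3 and 7. The other genes of the T cell identity list, 13 with Trac and without the Cd3 genes of the rule, had a median log2 ratio of 0.02 between the libraries, and none was called by the limits given below. Ms4a1, a defining B cell gene, was low but not absent, at 0, 4.58 and 7.61 CPM in libraries 4, 5 and 6, against at most 1.06 CPM in the others. Only 4 cells of libraries 4, 5 and 6 lay at the limit with 3 Cd3 UMIs, 528 had at least 4, and 19 further barcodes lay just outside with 2. The barcodes just outside had 92.7 CPM of Trac and 8097 CPM of the myeloid lysozyme Lyz2, while the cells just inside had 248 CPM of Trac and 248 CPM of Lyz2. Of the genes of immature T cells, Rag1, Rag2 and Ptcra had no UMI in libraries 4, 5 and 6, whereas Rag1 had 17.3 CPM in library 7. Of the 10 genes in that list 3 could be compared, and none differed.

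A gene was called higher or lower when its CPM in libraries 4, 5 and 6 lay all above or all below those of libraries 1, 2, 3 and 7 and the medians differed at least 2-fold. The rule was applied to 5759 genes with a mean of at least 20 CPM over the 7 libraries. It called 65 genes higher (1.13%) and 348 lower (6.04%), and these shares are the background for every list below. The median log2 ratio over all genes compared was -0.20, and -0.08 with hemoglobin left out of the total, so a ratio slightly below 1 is the ordinary case. In bulk sums of this kind, fewer cells that hold a transcript and less transcript per cell cannot be told apart, which is why shares of cells are given beside the levels.

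Both Cd8 co-receptor genes were above the other libraries, and Cd8b1 (GRCm38 chromosome 6, 71322788 to 71337494) lies beside Cd8a (71373427 to 71379173). Cd8b1, the beta chain of the Cd8 co-receptor of cytotoxic T cells, had 677, 675 and 740 CPM in libraries 4, 5 and 6 and 158, 318, 303 and 351 CPM in libraries 1, 2, 3 and 7, a 2.18-fold difference of medians. Cd8a, the alpha chain, had 245, 274 and 281 CPM against 138, 144, 158 and 242 CPM. Its ranges did not overlap either, but the ratio of 1.81 was below the limit. Cd4, the co-receptor of helper T cells, had 17.5, 86.4 and 72.8 CPM against 168, 75.3, 83.9 and 126 CPM, and here the ranges overlapped.

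Shares of cells gave the same picture at equal depth, with each cell thinned at random to 2000 UMIs. Cells with a Cd8a or Cd8b1 UMI and none of Cd4 were 60.0% (48.0 to 71.1), 54.0% (46.8 to 61.1) and 61.4% (55.2 to 67.4) in libraries 4, 5 and 6. In libraries 1, 2, 3 and 7 they were 19.6% (15.9 to 23.9), 35.6% (30.5 to 41.1), 39.6% (33.9 to 45.5) and 39.0% (31.2 to 47.1). Of the intervals of the hemoglobin-rich libraries, only that of library 5 overlapped one of the others, that of library 7. Cells with Cd4 alone were 1.33%, 14.1% and 13.5% against 30.7%, 12.4%, 12.8% and 18.2%, which overlapped. Without thinning, the Cd8 cells made up 62.1% to 73.3% against 24.3% to 50.9%, and cells with Cd4 alone 9.33% to 24.7% against 27.0% to 46.7%, which then did not overlap. B cells were gated as barcodes within the mitochondrial limit with at least 3 Cd79a UMIs and no UMI of Cd3e, Cd3d or Cd3g. At most 1.01% of them had a Cd8 UMI without Cd4 in libraries 4, 5 and 6 (median depth 9086, 5460 and 5050 UMIs before thinning). That gate left out barcodes with Cd3 RNA, so this low share was partly fixed in advance and is no independent control. Thinning left out no T cell of libraries 4, 5 and 6 and 6, 7, 5 and 3 of libraries 1, 2, 3 and 7.

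**Figure D1:**
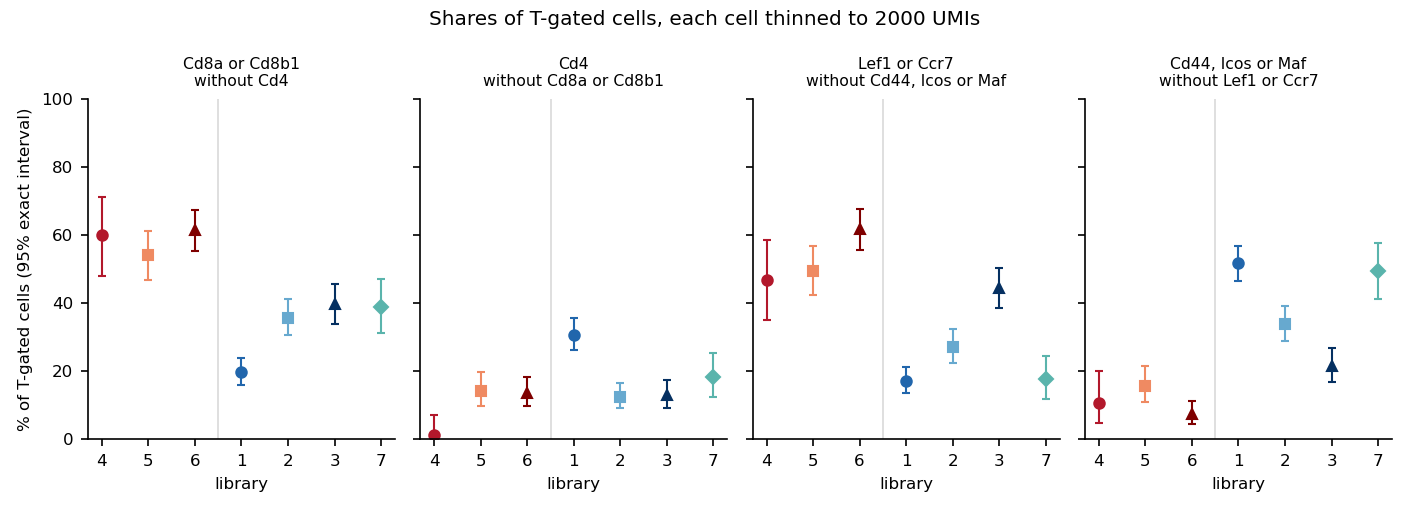
Percent of T cells (vertical axis) in each library (horizontal axis) that held a UMI of the first genes named and none of the second, after thinning each cell to 2000 UMIs. Points are libraries and bars are exact 95% binomial intervals. Libraries 4, 5 and 6 lie above the others for Cd8 without Cd4 (54.0% to 61.4% against 19.6% to 39.6%) and for Lef1 or Ccr7 without Cd44, Icos or Maf (46.7% to 61.8% against 17.1% to 44.4%), and overlap them for Cd4 alone.

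No naive gene was called higher. Of the 19 genes in the naive list, all were compared, 15 had a ratio above 1, and the median log2 ratio was 0.32. Against a background of 1.13% higher, 0 of them were called higher, and 1 was called lower, Ramp1, a partner protein of neuropeptide receptors. Without library 4 the count of naive genes called higher was 2.

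Lef1, a transcription factor of naive and memory precursor cells, had 333, 360 and 593 CPM against 161, 211, 378 and 220 CPM. The value of library 3 lay between those of libraries 5 and 6. Tcf7, its close relative, had 276, 336 and 417 CPM against 256, 196, 317 and 320 CPM. Neither gene separated the libraries in CPM. The share of cells with a Lef1 UMI was apart without thinning, at 82.3% to 89.6% against 43.4% to 76.8%. After thinning it overlapped, at 50.7% to 62.2% against 26.0% to 50.7%. The share with a Tcf7 UMI overlapped both ways. Satb1, a chromatin organizer, had 345, 401 and 629 CPM against 222, 251, 520 and 344 CPM, and Il7r, the receptor for the survival cytokine interleukin 7, had 657, 573 and 808 CPM against 586, 494, 737 and 578 CPM. Satb1 overlapped through library 3, and Il7r through libraries 1, 3 and 7.

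The genes of recirculation did not move as one. Ccr7 had 186, 247 and 338 CPM against 195, 244, 548 and 333 CPM, so its highest value was that of library 3 and its median was lower in libraries 4, 5 and 6. Klf2, the factor that keeps S1pr1 on, had 801, 936 and 1211 CPM against 503, 905, 1044 and 703 CPM. S1pr1, the receptor by which T cells leave lymphoid organs, had 169, 247 and 267 CPM against 176, 243, 317 and 195 CPM. Of 2 further genes of naive cells, Dapl1 had 268, 121 and 207 CPM against 49.4, 151, 189 and 113 CPM. Igfbp4, a secreted binding protein for insulin-like growth factors, had 158, 149 and 191 CPM against 81.1, 101, 186 and 104 CPM. All 5 genes overlapped between the libraries in CPM. The share of cells with a Klf2 UMI did not overlap after thinning, at 80.0% to 84.2% against 43.3% to 75.7%, though the interval of library 3 reached theirs. That of Ccr7 overlapped, at 24.0% to 43.6% against 20.4% to 55.6%. In the wider homing list, Ccr9, a receptor for gut homing, was higher and Cxcr4 and Itga1, a collagen-binding integrin of tissue-resident cells, were lower among 13 compared, Itga1 having passed the filter only through libraries 1, 2, 3 and 7.

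Of the activated and memory genes, some were lower in libraries 4, 5 and 6. Of 26 in the list 24 were compared, all 24 had a ratio below 1, and 10 were called lower (41.7%, background 6.04%), with a median log2 ratio of -1.33. The whole list summed to 4828, 10693 and 3552 CPM in libraries 4, 5 and 6 and to 13958, 12338, 7951 and 11783 CPM in libraries 1, 2, 3 and 7, so library 5 lay above library 3. Those called were Cd44, S100a4, Cxcr6, Icos, Ctla4, Pdcd1, Maf, Vim, Tnfrsf4 and Rora. Of these, Pdcd1 and Tnfrsf4 passed the filter on low values only through libraries 1, 2, 3 and 7. Ctla4, which reached the filter in library 5 alone of the hemoglobin-rich libraries, also averaged under it there. Nothing is read from the calls of Pdcd1, Tnfrsf4 and Ctla4, or from the 41.7% that counts them. Without doublet-like cells only Cxcr6, Icos, Pdcd1 and Rora of these were still called, and the calls of Cd44, S100a4, Ctla4, Maf, Vim and Tnfrsf4 were lost. Cd44 had 86.3, 118 and 67.4 CPM in libraries 4, 5 and 6 and 384, 244, 185 and 356 CPM in libraries 1, 2, 3 and 7, which is 3.48-fold lower. Icos, a costimulatory receptor of activated and helper cells, had 33.7, 86.9 and 39.7 CPM against 295, 184, 207 and 283 CPM, 6.18-fold lower. Even library 3, which was close to libraries 4, 5 and 6 for the naive genes, lay clearly above them for Icos.

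Maf, a factor of helper and gamma-delta T cells, had 48.5, 93.5 and 10.3 CPM against 339, 145, 104 and 283 CPM, and the gap between library 5 and library 3 was small. The inhibitory receptor Ctla4 had 0, 26.9 and 3.80 CPM against 228, 61.5, 102 and 134 CPM. Cxcr6, a receptor of tissue-resident T cells, had 49.9, 52.4 and 56.5 CPM against 258, 184, 73.8 and 405 CPM. The Foxp3 clause of the rule removed 1, 7 and 2 cells from libraries 4, 5 and 6 and 23, 16, 25 and 27 from the others. Regulatory T cells also use Ctla4 and Icos, any of them without a Foxp3 UMI stayed in, and their part in these values was not tested.

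The calcium-binding and cytoskeletal genes of memory cells divided libraries 4, 5 and 6 among themselves. S100a4 had 334, 596 and 88.6 CPM against 1738, 1160, 617 and 940 CPM, so that library 5 came within reach of library 3. With hemoglobin outside the total the S100a4 ranges overlapped (log2 ratio -1.42). S100a6 had 781, 1375 and 322 CPM against 1372, 1163, 649 and 1134 CPM, and Lgals1, a galectin of activated cells, 282, 1359 and 220 CPM against 1255, 1396, 709 and 881 CPM. Library 5 was inside the range of libraries 1, 2, 3 and 7 for Lgals1 and at its upper end for S100a6. Crip1 had 768, 2102 and 633 CPM against 1562, 2088, 1458 and 1526 CPM, and Cxcr3, a receptor for interferon-induced chemokines, 28.3, 102 and 25.5 CPM against 77.1, 109, 54.0 and 56.2 CPM. For S100a4, Lgals1, Crip1 and Cxcr3 libraries 4 and 6 were the lowest of the 7, whereas for S100a6 library 3 lay below library 4.

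**Figure D2:**
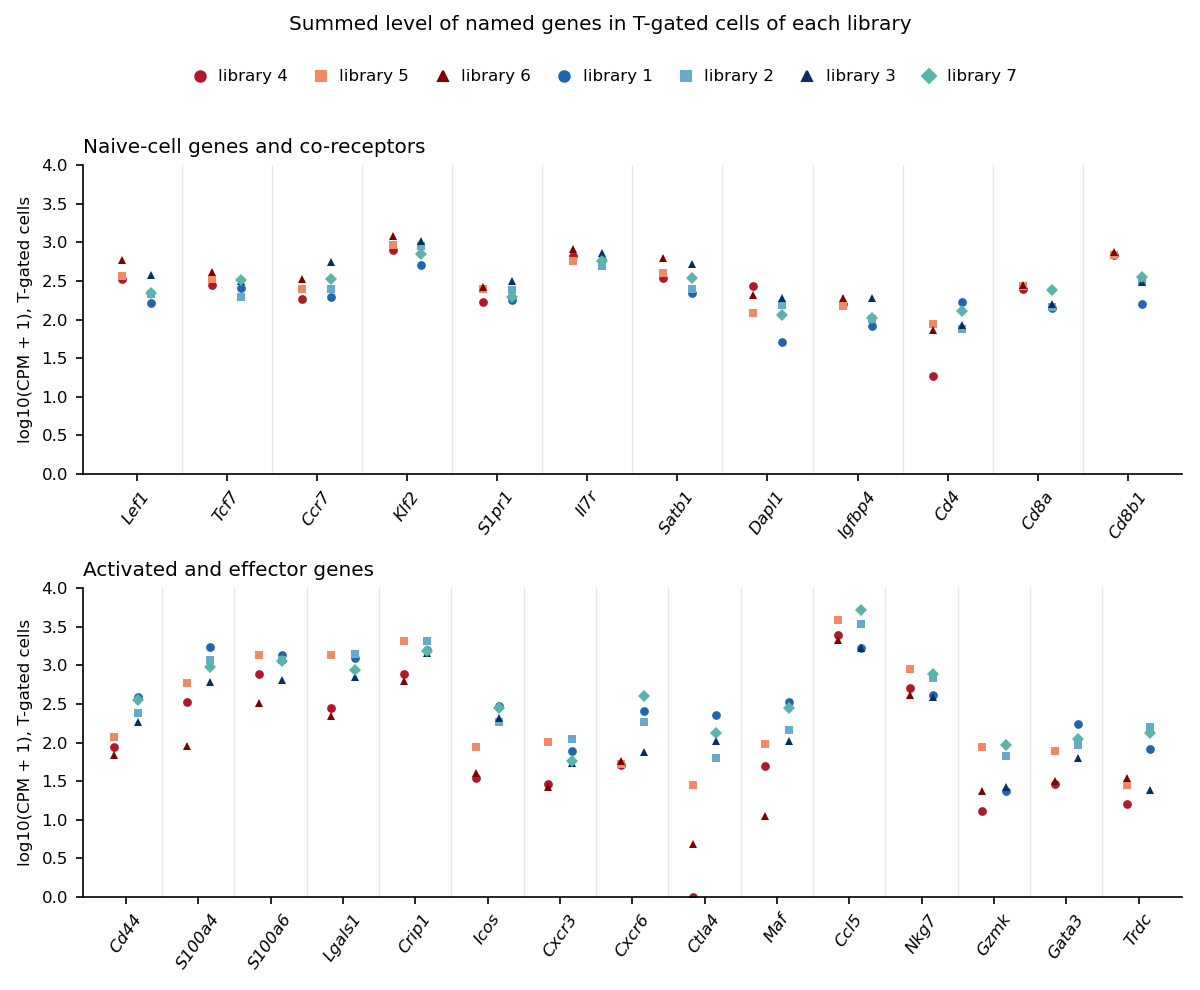
Level of the named genes as log10 of CPM plus 1 (vertical axis) in the T cells of each library (points), with libraries 4, 5 and 6 in red and orange at the left of each gene and libraries 1, 2, 3 and 7 in blue and green at its right. Cd8b1 is separated upwards and Cd44, Icos, Ctla4 and Maf downwards, while library 3 reaches the range of libraries 4, 5 and 6 for Lef1 and library 5 that of the others for Lgals1 and Crip1.

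Cells were then placed by their own counts, again at 2000 UMIs per cell. The median T cell of libraries 4, 5 and 6 had 11, 13.5 and 15 UMIs of the naive list and 6, 6.5 and 4 UMIs of the activated list. In libraries 1, 2, 3 and 7 the medians were 7, 9, 15 and 8 UMIs for the naive list and 27, 20, 7 and 24.5 UMIs for the activated list. Naive UMIs outnumbered activated ones in 68.0% (56.2 to 78.3), 58.1% (50.9 to 65.0) and 82.6% (77.5 to 87.0) of the cells of libraries 4, 5 and 6, and in 21.9%, 33.8%, 67.4% and 26.6% of those of libraries 1, 2, 3 and 7. Library 3 thus lay between libraries 5 and 4 by this measure. The line between both kinds is a division of a range, and 31 of 532 and 57 of 1170 cells lay within 2 UMIs of it.

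Cells with more naive than activated UMIs had medians of 14, 18 and 16 naive UMIs in libraries 4, 5 and 6 and 18, 16, 18 and 20 in the others. The remaining cells had medians of 15, 31 and 20 activated UMIs against 32, 28, 27 and 31, so those of libraries 4 and 6 were lower. Both are values on which the kinds were divided. By single genes, a Lef1 or Ccr7 UMI without Cd44, Icos or Maf was found in 46.7%, 49.5% and 61.8% of cells, against 17.1%, 27.2%, 44.4% and 17.5%. The reverse was found in 10.7%, 15.7% and 7.34% against 51.6%, 33.8%, 21.5% and 49.4%. The intervals of libraries 4 and 5 overlapped that of library 3 for the first pattern, and without thinning the reverse pattern overlapped too, with 14.1% at the highest in libraries 4, 5 and 6 and 14.0% at the lowest in the others. B cells also use Ccr7 and Cd44, and the first pattern was found in 16.1% to 31.2% of B cells of libraries 4, 5 and 6, so it is not particular to T cells. Lef1 and Icos were rare in these B cells, with a UMI in at most 2.44% and 0.16% of them, against 50.7% to 62.2% and up to 10.8% of the T cells. The B cell gate allowed no Cd3 UMI, so little T cell RNA in them was partly fixed in advance.

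**Figure D3:**
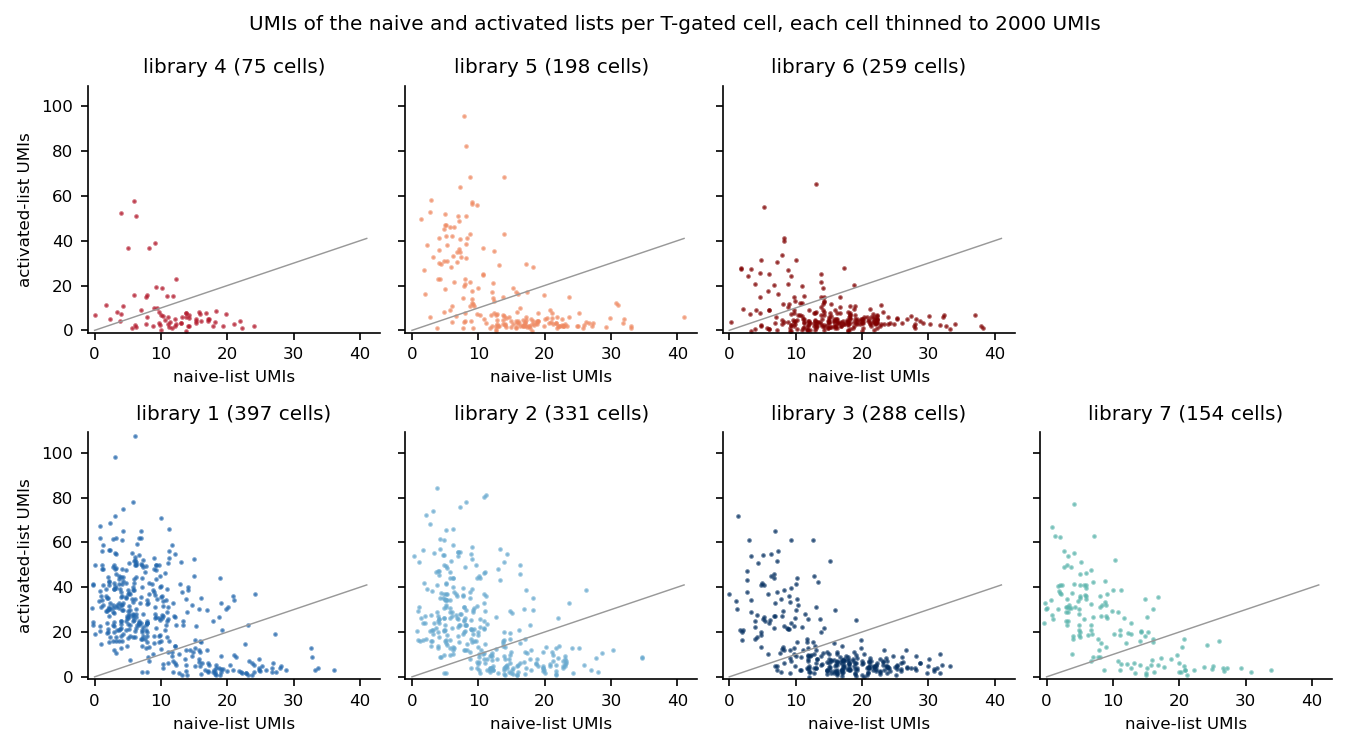
UMIs of the naive list (horizontal axis) against UMIs of the activated list (vertical axis) in each T cell (points, moved slightly at random to show overlap), 1 panel per library, after thinning to 2000 UMIs. The grey line marks equal counts. Most cells of libraries 4, 5 and 6 lie below it (68.0%, 58.1% and 82.6%), as do those of library 3 (67.4%), and most cells of libraries 1, 2 and 7 lie above it.

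Because the libraries differed in co-receptor use, each lineage was also compared on its own. Among cells with Cd8a or Cd8b1 and no Cd4 there were 55, 123 and 166 cells in libraries 4, 5 and 6 and 98, 135, 149 and 65 in libraries 1, 2, 3 and 7. In these Cd8 cells 60 of 5530 genes were higher (1.08%) and 151 lower (2.73%). None of the 19 naive genes was called. Ccr7, of the naive and homing lists, was apart downwards though just short of the 2-fold limit, with 187, 234 and 308 CPM against 476, 346, 691 and 446 CPM, a ratio of 0.51. Under the limit too, Txk was apart downwards with a ratio of 0.78, and Klf3 and Dgka upwards with 1.57 and 1.58. Cd44, Icos, Ctla4 and Rora were lower among 22 activated genes. Ctla4, with 0, 17.1 and 4.86 CPM in libraries 4, 5 and 6, passed the filter only through the others, so nothing is read from its call. S100a4, Cxcr6 and Maf overlapped between the libraries in Cd8 cells.

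In cells with Cd4 and no Cd8a or Cd8b1, 1 of the 19 naive genes was called higher. These cells were few in libraries 4, 5 and 6, with 7, 49 and 54 cells, against 188, 96, 79 and 49. Here 88 of 5787 genes were higher (1.52%) and 429 lower (7.41%). The naive gene was Igfbp4, which had 539, 383 and 439 CPM against 65.1, 138, 267 and 131 CPM, 3.26-fold higher. Lef1, Klf3 and Dgka were also apart upwards but under the limit, with ratios of 1.92, 1.78 and 1.57. Of 23 activated genes 9 were lower, among them Cd44 with 67.3, 127 and 61.5 CPM against 414, 266, 239 and 321 CPM. Pdcd1 and Tnfrsf4, also among the 9, were under 20 CPM in each of libraries 4, 5 and 6. They passed the filter only through the others, so nothing is read from their calls. Icos was not called here, with 202, 165 and 58.7 CPM against 323, 227, 267 and 405 CPM, 1.79-fold lower. S100a4, Cxcr6 and Maf were not called in these cells either, so their calls were found in neither lineage alone. The values of library 4 rest on few UMIs, 32 for Igfbp4 and 4 for Cd44.

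Nearly all immediate early genes that could be compared were lower. Of 15 listed 13 were compared, and 12 were lower (92.3%, background 6.04%), with a median log2 ratio of -3.71. Fos, Fosb, Jun, Egr1 and Nr4a1 passed the filter on low values only through libraries 1, 2, 3 and 7, so they had to differ, and nothing is read from the 92.3%. Of the 8 other genes compared, 7 were lower. Fos, a subunit of the AP-1 transcription factor, had 17.5, 8.64 and 9.78 CPM in libraries 4, 5 and 6 and 223, 332, 229 and 520 CPM in libraries 1, 2, 3 and 7, 28.6-fold lower. Junb, its partner, had 90.3, 104 and 108 CPM against 1241, 1086, 1593 and 1491 CPM, 13.1-fold lower. Nr4a1, an orphan nuclear receptor that follows T cell receptor signals, had 10.8, 3.05 and 8.15 CPM against 98.2, 139, 161 and 85.6 CPM, 14.5-fold lower. For Junb every value of libraries 4, 5 and 6 lay far below every value of the others. So did those of Fos and Nr4a1, but these 2 passed the filter only through the others, so nothing is read from their gaps.

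The remaining members fell into steps. Jun, Fosb and the phosphatase Dusp1 were 36.2-fold, 31.8-fold and 16.3-fold lower, Ier2, Zfp36 and Nfkbia 4.18-fold, 3.66-fold and 3.66-fold, and Jund and Btg2 2.55-fold and 2.41-fold. Cd69, a surface receptor induced early and held on tissue-resident cells, was the exception, with 98.4, 164 and 95.6 CPM against 155, 146, 127 and 346 CPM. The shock protein genes Hspa1a and Hspa1b were below the filter. Hspa1a had 0, 0 and 0.54 CPM against 9.56, 32.4, 14.8 and 10.4 CPM.

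The immediate early difference was found in all 3 kinds of cell examined. In B cells 8 of 13 genes were lower, where 3.58% of all genes were lower and 1.86% higher, and Junb had 150, 142 and 129 CPM against 863, 705, 1391 and 969 CPM. Csf1r and Cd68 cells were barcodes within the mitochondrial limit with at least 3 UMIs over these 2 genes of monocytes and macrophages. Their gate allowed no UMI of the Cd3 genes or of Cd79a. In them 10 of 14 genes were lower, where 11.1% of all genes were lower and 6.56% higher, and Junb had 262, 370 and 462 CPM against 1037, 1140, 1315 and 1167 CPM. The ratio of Junb was thus 13.1 in T cells, 6.45 in B cells and 3.11 in the Csf1r and Cd68 cells. Some of the other genes may have passed the filter only through libraries 1, 2, 3 and 7 here too, so nothing is read from the counts. Summed, the list had 1420, 1907 and 1799 CPM in B cells against 4332, 3883, 6308 and 4273 CPM. In the Csf1r and Cd68 cells it had 1540, 2424 and 2679 CPM against 6103, 6444, 7430 and 7375 CPM. Of the activated list, 1 of 13 genes compared was lower in B cells, and 2 of 14 were lower and 3 higher in the Csf1r and Cd68 cells. These are not the same members as in T cells. Icos and Cxcr6, for example, were found without thinning in at most 0.20% and 0.40% of the B cells of any library. The counts therefore do not show whether the activated list differed between kinds of cell. Of the genes called in T cells, 52 of 65 higher and 261 of 348 lower ones were also compared in B cells. There 37 and 103 of them were called the same way, which are 35.9% and 52.0% of the B cell calls.

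**Figure D4:**
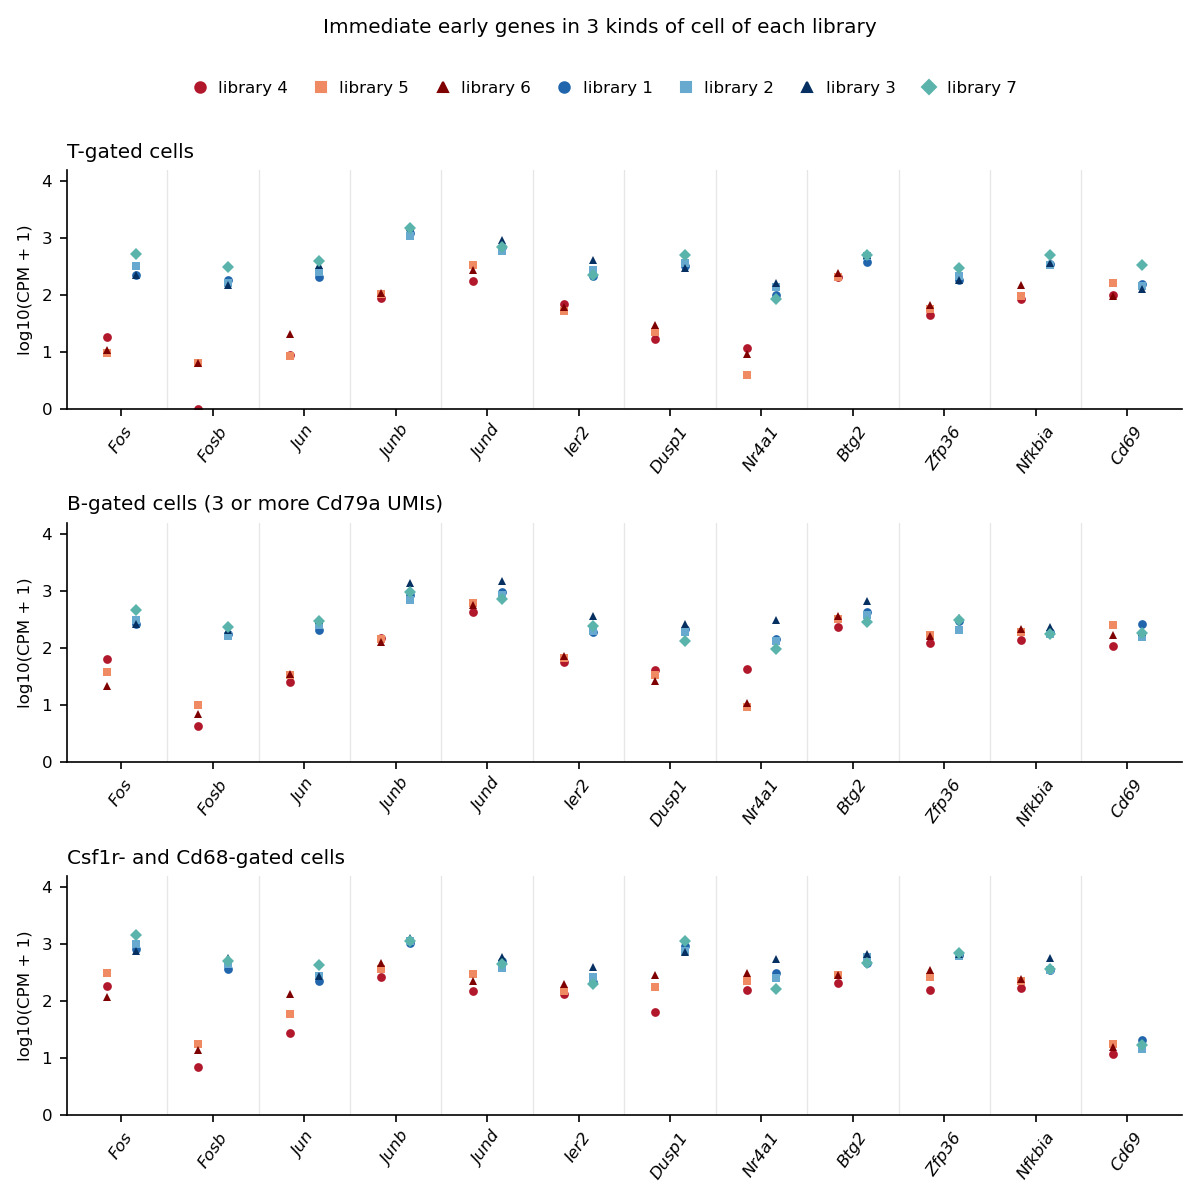
Level of immediate early genes as log10 of CPM plus 1 (vertical axis) in T cells, B cells and Csf1r and Cd68 cells (panels) of each library (points), with libraries 4, 5 and 6 in red and orange and libraries 1, 2, 3 and 7 in blue and green. Fos, Fosb, Jun, Junb and Dusp1 are separated in all 3 panels, and Cd69 overlaps in each.

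Immediate early RNA was low on both sides of the line between naive and activated UMIs. At 2000 UMIs per cell, T cells of libraries 4, 5 and 6 had medians of 1, 2 and 2 UMIs over the list, against 7, 7, 9 and 10 in libraries 1, 2, 3 and 7. Among cells with more naive than activated UMIs the medians were 1, 2 and 2 against 8, 6, 9 and 9, and among the others 1.5, 2 and 3 against 7, 7, 10 and 10. Junb was found in 13.3% to 22.2% of T cells against 71.0% to 86.5%, and in 18.8% to 22.9% of B cells against 59.6% to 81.6%. Of Cd8 cells and of Cd4 cells alone, 12 and 11 of 13 genes were lower, where 2.73% and 7.41% of all genes were. Fos, Fosb, Jun, Egr1 and Nr4a1 averaged under the filter in libraries 4, 5 and 6 in both, as did Dusp1 in Cd8 cells. Nothing is therefore read from these counts. Junb, above the filter throughout, had 96.0, 94.0 and 120 CPM against 972, 890, 1383 and 1188 CPM in Cd8 cells. In Cd4 cells it had 118, 160 and 95.1 CPM against 1204, 1023, 1515 and 1444 CPM. Junb, without hemoglobin in the total, was low both in cells with over 1% hemoglobin and in the rest. It had 76.1 and 123 CPM in library 4, 91.6 and 112 CPM in library 5 and 143 and 111 CPM in library 6, with no one direction.

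Several immediate early genes are textbook targets of the factor Creb, whose site is spelled TGACGTCA or, as a shorter form, TGACG on either strand. The longer motif contains the shorter one. RefSeq promoters (GRCm38.p6) were found for 12 of the 15 genes, and the 250 bases before the start were searched after the genes had been seen to differ. The longer motif was found in Btg2 and Dusp1 and is in 1.55% of all 32851 promoters. The shorter was found in 6 of the 12, and is in 17.8% of all promoters. By comparison, it was found in 7 of 16 naive genes, which had 31 promoters, and in 2 of 20 activated genes, which had 21, against 12 promoters for the 12 immediate early genes, so shares per gene are not comparable between the lists. The stretches for 4 genes named above are shown to let the match be seen, with the motif in capitals.
Fos, chr12:85473804-85473848, plus strand: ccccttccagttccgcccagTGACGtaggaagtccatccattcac
Junb, chr8:84978830-84978874, minus strand: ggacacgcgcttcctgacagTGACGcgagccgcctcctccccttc
Nr4a1, chr15:101266786-101266830, plus strand: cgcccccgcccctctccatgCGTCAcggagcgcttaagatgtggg
Dusp1, chr17:26508588-26508635, minus strand: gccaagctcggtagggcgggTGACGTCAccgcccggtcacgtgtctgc
A match is a description of the sequence and shows no binding in these cells.

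Effector genes were less uniform. In the cytotoxic list 3 of 14 compared were lower, Ccl4, Ifng and Fasl (21.4%), and these passed the filter only through libraries 1, 2, 3 and 7. Ccl5, a chemokine of memory Cd8 cells, had 2510, 3924 and 2141 CPM against 1667, 3459, 1705 and 5161 CPM, and Nkg7, a granule protein, 515, 907 and 411 CPM against 416, 684, 384 and 767 CPM. Both overlapped. Gzmk, a granzyme of memory cells, had 12.1, 88.0 and 22.3 CPM against 22.7, 66.5, 25.8 and 92.5 CPM.

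Genes of helper and gamma-delta T cells gave few values that could be compared. Il17a, a cytokine of type 17 and gamma-delta T cells, had no UMI in libraries 4, 5 and 6 and 96.9, 22.5, 2.31 and 105 CPM in libraries 1, 2, 3 and 7, a median at least 36.6-fold lower when 3 UMIs are allowed per library, although library 3 lay under the 4.04 CPM that a 0 allows in library 4. Of 16 genes of that list 7 were compared, and Tmem176a, Tmem176b, Tcrg-C1 and Tcrg-C2 were also called. Of the 5 called, all but Tcrg-C2 passed the filter only through libraries 1, 2, 3 and 7 and so had to differ, and nothing is read from their count. Trdc, the delta chain constant region, had 14.8, 26.9 and 33.7 CPM against 80.4, 160, 23.1 and 131 CPM, overlapping at library 3. Gata3, the type 2 factor, had 28.3, 76.3 and 31.0 CPM against 173, 91.1, 61.8 and 109 CPM, and 3 of 11 type 2 genes were compared, of which Il1rl1 and Ltb4r1, which passed in the same way, were lower. Among 13 cytokine receptors Il18r1 was lower, and among 9 interferon-stimulated genes none was called.

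Library 5 differed from libraries 4 and 6 by a set of dividing cells. Cells with at least 3 UMIs over Mki67, Top2a, Birc5, Cdk1, Ccnb2 and Rrm2 numbered 0, 26 and 2 in libraries 4, 5 and 6, which is 0%, 13.1% (8.76 to 18.6) and 0.77%, and 48, 37, 23 and 7 in libraries 1, 2, 3 and 7. The 0 of library 4 allows up to 4.80% by the exact interval. In library 5, 14 of the 26 had a Cd8 UMI without Cd4, and 20 and 22 had a UMI of the granzymes Gzma and Gzmb. They were deep cells, with a median of 18302.5 UMIs.

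Dividing cells differed from the other T cells of their library in several genes. In library 5 Gzma had 3079 CPM in them and 244 CPM in the rest, Lgals1 3219 and 582 CPM, and S100a6 2590 and 868 CPM. Dividing cells of other libraries had more Lgals1 as well, with 2186 and 893 CPM in library 1, 3342 and 778 CPM in library 2, 3403 and 283 CPM in library 3 and 2251 and 771 CPM in library 7, so this was not particular to library 5. Gzma and S100a6 did not go one way, since Gzma had 23.2 CPM in the dividing and 564 CPM in the other cells of library 7, and S100a6 1212 and 1434 CPM in those of library 1. Without the dividing cells, Cd44 in library 5 went from 118 to 110 CPM, Icos from 86.9 to 68.5 CPM, S100a4 from 596 to 484 CPM and Vim from 695 to 504 CPM. Junb had 77.7 and 115 CPM, so the dividing cells shared the low immediate early level. No gene of the cell division list was called, since library 5 did not lie below the other libraries. Mki67 had 0, 236 and 4.35 CPM in libraries 4, 5 and 6 against 212, 153, 105 and 114 CPM, so library 5 was the highest of the 7. Without library 5, the count of genes called lower was 666 and that of activated genes 19. With the dividing cells of all libraries left out, these counts were 368 and 7, and the calls of S100a4, Pdcd1 and Maf were lost.

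Other transcripts moved with these libraries. With T cells of over 1% hemoglobin left out, 74 genes were higher and 293 lower, and with T cells holding platelet RNA left out 63 and 336. The 12 immediate early genes were called in both runs, but nothing is read from this for Fos, Fosb, Jun, Egr1 and Nr4a1. The part of the other lists below was not tested. All 9 erythroid genes that passed the filter, of 13 in the matrix, were higher, 8 of them passed only through libraries 4, 5 and 6, and the libraries were set apart by that signal, so nothing is read from the count. Summed, the list had 147085, 41297 and 67550 CPM in the T cells of libraries 4, 5 and 6 against 48.4 to 73.8 CPM, led by Hbb-bs with 77384, 18222 and 32291 CPM. Of the defining erythroid genes, Klf1 had no UMI in these T cells, but Alas2 was found in 46.7%, 22.2% and 21.6% of them. In the T cells of libraries 1, 2, 3 and 7 Alas2 had no UMI. Without hemoglobin in the total, Alas2 had 1455, 704 and 1172 CPM in cells with over 1% hemoglobin, and 20.1, 9.69 and 13.1 CPM in the rest. Every T cell of libraries 4, 5 and 6 held a hemoglobin UMI, with a median of 0.87%, 0.32% and 0.62% of UMIs, and 32, 32 and 49 cells were over 1%.

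Platelet genes were higher as well. Of 6 listed, 4 passed the filter and were called, but all except Pf4 were under it in each of the other libraries and had to differ. Pf4 also averaged under the filter in the other libraries, so nothing is read from these calls. The list had sums of 222, 553 and 792 CPM against 19.1, 8.44, 9.68 and 50.1 CPM. Pf4, a platelet chemokine, was the most abundant, with 113, 247 and 376 CPM against 14.8, 5.63, 4.15 and 39.8 CPM. At least 3 UMIs of Pf4 and Ppbp were found in 18.7%, 39.4% and 57.9% of T cells against 0.74%, 0.59%, 0.34% and 1.91%. B cells of libraries 4, 5 and 6 had platelet sums of 372, 836 and 988 CPM, above those of the T cells in each library.

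Lung and antigen-presenting cell transcripts moved the other way. The genes called lower in the lung epithelium list, 4 of 5 compared, and in the stromal and endothelial list, 6 of 7 compared, all passed the filter only through libraries 1, 2, 3 and 7, so nothing is read from these counts. The lung epithelium list summed to 0, 1.53 and 2.17 CPM in T cells of libraries 4, 5 and 6 and to 3402, 815, 3082 and 162 CPM in libraries 1, 2, 3 and 7, led by Sftpc, which had no UMI in the former. The stromal and endothelial list summed to 82.2, 61.0 and 125 CPM against 370, 2519, 830 and 185 CPM, with Mgp and Cldn5 leading and Cdh5 at 0. In the B cell list Cd74, H2-Aa, H2-Ab1 and H2-Eb1, which also mark macrophages and dendritic cells, were lower among 6 compared, while sums were 321, 403 and 806 CPM against 3605, 3005, 992 and 575 CPM. Ighm, the heavy chain gene of IgM, had 163, 229 and 335 CPM against 107, 132, 134 and 122 CPM, apart but under the limit of the ratio.

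Neutrophil and monocyte genes varied within both sets. Their list summed to 7826, 1337 and 3545 CPM in libraries 4, 5 and 6 and to 2274, 4462, 2505 and 2374 CPM in the others, and 1 of 9 genes, Cebpb, was lower. Lyz2 and S100a9 were the most abundant, and Elane had no UMI. In the natural killer and innate lymphoid list 1 of 5 compared, Il1rl1, was lower, with sums of 226, 312 and 202 CPM against 402, 314, 164 and 404 CPM. Of the sex-linked list only Xist passed the filter and was not called.

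**Figure D5:**
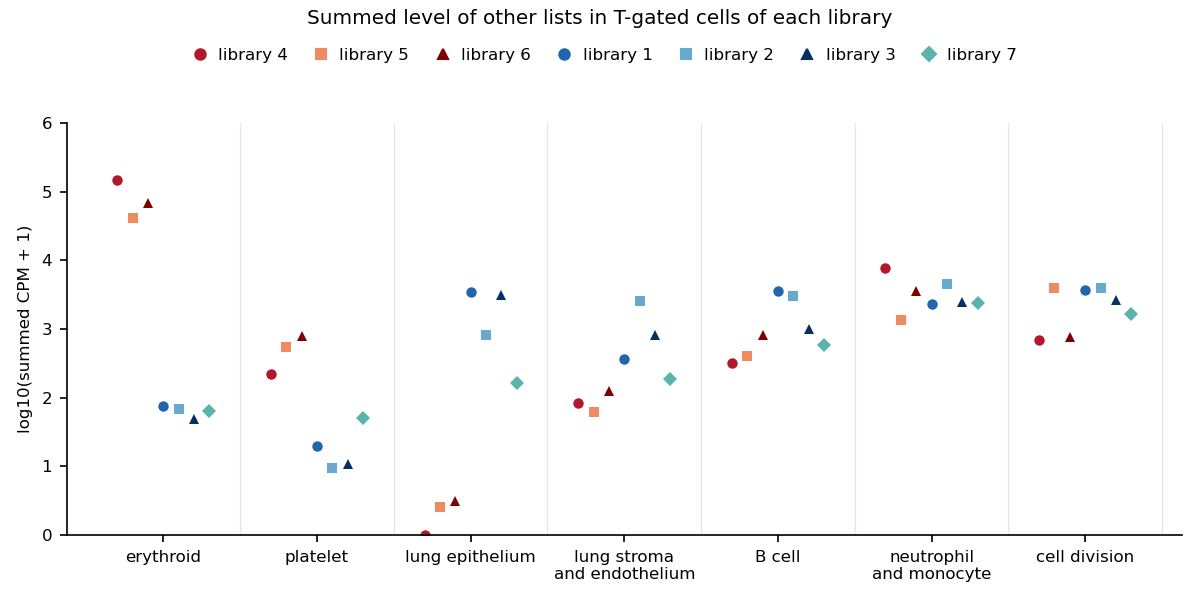
Summed level of the lists for other cell types and for cell division, as log10 of CPM plus 1 (vertical axis), in the T cells of each library (points). Erythroid and platelet sums are higher in libraries 4, 5 and 6, lung epithelium and stromal sums are lower, neutrophil and monocyte sums overlap, and library 5 alone of these 3 reaches the other libraries for cell division.

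Genes outside all lists were named by the size of their ratio. The leading higher genes included Ube2l6 and Rsad2, and Myl9, Nrgn, Clec1b, Gng11 and Tsc22d1. Clec1b, a platelet receptor, had 16.2, 62.0 and 77.2 CPM against 3.30, 1.76, 0.92 and 6.91 CPM, and in B cells 39.0, 88.2 and 108 CPM against at most 6.42 CPM. Rsad2, an interferon-induced antiviral enzyme, had 216, 120 and 46.7 CPM against 1.98, 19.3, 8.30 and 17.3 CPM, and in B cells 272, 134 and 56.2 CPM against at most 8.32 CPM. These 7 were also higher by the rule in B cells, so they were not particular to T cells. In T cells Myl9, Clec1b, Ube2l6 and Rsad2 were under 20 CPM in each of libraries 1, 2, 3 and 7. They passed the filter only through libraries 4, 5 and 6, so nothing is read from their being called.

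The 8 leading lower genes were Adgrf5, Cxcl2, Egfl7, Igfbp7, Ptprb, Ramp2, Spp1 and Chil3. All but Chil3 were under 20 CPM in each of libraries 4, 5 and 6 and passed the filter only through the others. They had to differ, so nothing is read from their being called. Adgrf5, Egfl7, Ptprb and Ramp2 are endothelial genes, and Cxcl2, Spp1 and Chil3 are genes of myeloid cells. Chil3, a chitinase-like protein of alveolar macrophages, had 71.4, 1.02 and 8.70 CPM against 1606, 955, 427 and 3694 CPM. Cxcl2, Adgrf5, Ptprb and Ramp2 had no UMI in the T cells of libraries 4, 5 and 6. None of these 8 is a gene known to be made chiefly by T cells.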

How the data were processed

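The deposited values were UMI counts per gene and cell in 1 matrix of 37344 barcodes, made by the authors with Cell Ranger 3.1.0, STAR and mm10 by the submitters' processing notes. The authors down-sampled reads to even the libraries, and their cell filter comes after this matrix. The labels give version 3 of the 3′ kit and the supplementary methods an older one. The 9 samples outside the single-cell titles were left out.

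From the counts, T cells were gated as described, UMIs were summed over the cells of each library and divided by their total to give CPM, and all 31053 rows stayed in the total. The gate, the libraries and the 21 gene lists were chosen with earlier results of these data known. A few genes of these lists and of the named ones are not reported here. Genes to be named were 31 fixed ones, the members of largest median in other lists, and, outside the lists, the 8 of largest ratio in each direction with at least 50 CPM in the higher median. Other genes were named after their values were seen. No test was run, since libraries carry no group. Poisson and binomial intervals were exact at 95%. Doublets were not called, and an alternative left out cells with more than 2 times their library's median UMIs or at least 3 UMIs of Lyz2, Cd79b, Sftpc or Scgb1a1. The steps were tested on simulated data. Gene identifiers were the Ensembl ones of the matrix. Python 3.11.15, numpy 2.4.6, scipy 1.17.1, pandas 2.3.3 and matplotlib 3.10.9 were used. Alternatives covered the gate, depth, hemoglobin, doublets, lineage, filters, limits and single libraries.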

Additional observations from a re-analysis of the deposited data

How the results depend on the processing

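The 12 immediate early genes called lower were called in each run that left out a library, and were between 10 and 14 under the other settings. Single-library runs gave 55 to 108 genes higher and 291 to 666 lower, 8 to 19 activated genes lower and 0 to 2 naive genes higher, where the main count was 0, with the highest of the lower counts without library 5 and of the higher counts without library 4. Other counts moved by over 1.5 times as follows. Cells of 4000 to 8000 UMIs gave 107 higher, 213 lower and 2 naive genes. Doublet-like cells left out gave 201 lower, Cd8 cells alone 151 lower and 4 activated genes, and Cd4 cells 1 naive gene. Hemoglobin outside the total gave 100 higher. Naive counts were 2 at a mitochondrial limit of 5% and 1 after thinning. With no low-value filter 277 were higher and 1564 lower, and with a mean of at least 100 CPM, 23 and 67. At a ratio of 1.5 there were 175 and 614, with 2 naive genes. Where the nearest values of both sets had to differ 2-fold there were 28 and 149, with 5 activated genes.

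The median Cd8 share was 64.1% in libraries 4, 5 and 6 (63.1% to 68.7% without single libraries) and 40.7% in the others (39.9% to 41.4%). It was 56.5% and 37.8% in cells of 4000 to 8000 UMIs, and in the others 37.5% without doublet-like cells and 37.3% after thinning. The median share with Lef1 or Ccr7 and no Cd44, Icos or Maf was 45.3% (42.1% to 47.8% without single libraries) and 14.6% (12.1% to 17.2%). It was 36.8% and 8.20% at the 5% limit, 50.8% and 18.9% without doublet-like cells, 49.5% and 22.4% after thinning, and 57.0% in libraries 4, 5 and 6 at 4000 to 8000 UMIs. The cause of these moves was not tested. Of the 31 named genes, 10 were called and none changed direction while called. Calls of 7 genes (Cd8b1, Cd44, S100a4, Icos, Ctla4, Maf and Cxcr6) were lost in 19 of 585 settings of single genes. Leaving out dividing cells or cells with platelet RNA, and single libraries for the shares, was chosen after seeing the data. No paired analysis was possible because the numbered samples were not analysed here and libraries carry no group. Depth limits single genes in library 4 most, where 75 cells were found.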

Other observations

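Some interferon-inducible genes of the Ifi200 family, picked for their high ratios after their values were seen, were called higher in the T cells of libraries 4, 5 and 6. Members of this family are close in sequence and so uncertain one by one. Ifi214 had 83.6, 113 and 114 CPM in libraries 4, 5 and 6 and 9.56, 26.0, 27.2 and 33.7 CPM in libraries 1, 2, 3 and 7, Ifi213 had 68.8, 96.1 and 101 CPM against 18.1, 35.9, 27.7 and 32.8 CPM, and Ifi209 had 155, 233 and 207 CPM against 57.0, 85.5, 54.4 and 105 CPM. In the fixed interferon list none of 9 genes compared was called, and Isg15 had 36.4, 38.1 and 12.5 CPM against 13.8, 24.6, 16.6 and 16.4 CPM, which overlapped. Tnfaip3, an inhibitor of NF-kB signalling outside the fixed immediate early list, had 24.3, 31.5 and 26.6 CPM against 365, 275, 496 and 432 CPM.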
